A study of Mus musculus with 12 samples.

Results

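The epidermal growth factor (EGF) receptor system was followed through 10 genes of mouse mesenchymal stromal cells (MSCs). These are the ligand genes Hbegf, Areg, Ereg, Tgfa, Btc and Nrg1, the receptor genes Egfr and Erbb2, the receptor inhibitor gene Errfi1 and the ligand sheddase gene Adam17. They were taken by symbol from a table of raw read counts for 55487 genes, and all 10 were found in it. The rule that picks them uses symbols and no measured value, but it was written with earlier results of these data known.

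The cells were primary bone marrow MSCs of wild-type C57BL/6 mice aged 6 to 8 weeks, kept in medium with fetal bovine serum in all 3 groups. The group named Negative (control MSCs) was untreated, and no incubation time or vehicle is recorded for it here. Effects of A1 therefore cannot be told apart from those of its diluent or of a medium change. A1-treated MSCs received 50 µM of A1 for 6 h. A1 is a variant of Accum, in which cholic acid is joined to the nuclear localization signal peptide of hnRNPA1. The group A1-OVA received 50 µM of A1 together with 1 mg/mL of ovalbumin (OVA, chicken egg white albumin) for 6 h. The protocol of this group alone also names insulin, with no readable dose, and no group received OVA without A1, so OVA, its medium and the admixture cannot be told apart. Each group holds 4 poly(A) RNA libraries, and the 12 libraries hold 13702348 to 16881995 counted reads. The labels do not say whether the 4 libraries of a group are separate animals or cultures, so p-values measure the spread between these samples, which may be technical.

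Ligands of this family are made as membrane-anchored precursors and are released by metalloproteinases, of which ADAM17 is the best known. A released ligand brings receptors together in pairs, and the paired receptors start the ERK kinase cascade. ERBB2 has no known ligand of its own and acts as a partner, and the neuregulin receptors ERBB3 and ERBB4 are the usual binding partners of NRG1. Cells that respond to EGF switch on genes that limit the signal, among them Errfi1 (also called Mig6), whose protein binds the receptor kinase and blocks it. In bone marrow stroma, EGF family ligands are known to act on the growth and differentiation of the stromal cells.

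The labelled cell type was compared with marker genes. The 12 markers of mesenchymal stromal cells summed to 8540 to 8930 CPM (read counts scaled to library size with TMM factors) in control MSCs, 6080 to 6450 in A1-treated MSCs and 6170 to 6600 in A1-OVA. Cxcl12 carried most of this fall, at 3910 ± 130 CPM in control MSCs and 1510 ± 63.6 CPM with A1 (SD, n = 4). Of the 10 markers tested with A1, Cd44 was higher (2.62-fold, edgeR adjusted p = 2.37e-17), and Cxcl12, Pdgfra (50.4% of control), Vcam1 (51.7%) and Ly6a (66.4%) were lower. Col1a1, Pdgfrb, Prrx1, Eng and Nt5e did not pass. Some classical MSC markers were low, with Nt5e at 7 to 14 reads, Lepr at 6 to 16 reads and Thy1 at 0 to 17 reads per library. The 7 hematopoietic markers summed to 1.68 to 3.02 CPM across the 12 libraries, and 3 of the 7 had at most 3 reads in every library. The 4 endothelial markers summed to at most 0.916 CPM. The 5 epithelial markers summed to 0.118 to 0.186 CPM in control MSCs and 0.218 to 0.795 CPM in both treated groups, and Epcam had no read in any library. The part of these shifts in the results below was not tested.

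Promoter windows from RefSeq (assembly GRCm38.p6) were searched for 7 of the 10 genes, with a pair of windows for Errfi1. Each window holds 300 bases, from 250 bases before the start site to 50 bases after it. Windows of a gene that rose from almost no reads (Areg), of the receptor inhibitor gene that rose (Errfi1) and of the sheddase gene that fell (Adam17) are printed so that their letters can be compared. They were picked with these changes known, so any contrast between them is a description. The Areg window is chr5:91139349-91139648 on the plus strand, the second Errfi1 window is chr4:150854820-150855119 on the plus strand, and the Adam17 window is chr12:21373583-21373882 on the minus strand. Each is written 5′ to 3′ on the strand of the gene. Capitals mark matches on either strand to the CRE core TGACG (the cyclic AMP response element's shorter form) or to the SP1 motif GGGCGG.
Areg: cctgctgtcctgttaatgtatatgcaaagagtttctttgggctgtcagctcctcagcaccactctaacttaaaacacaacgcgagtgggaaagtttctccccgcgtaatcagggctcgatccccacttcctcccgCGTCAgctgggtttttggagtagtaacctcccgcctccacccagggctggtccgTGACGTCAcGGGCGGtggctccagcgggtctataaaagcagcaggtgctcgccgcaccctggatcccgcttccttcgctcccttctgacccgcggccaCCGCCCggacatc
Errfi1: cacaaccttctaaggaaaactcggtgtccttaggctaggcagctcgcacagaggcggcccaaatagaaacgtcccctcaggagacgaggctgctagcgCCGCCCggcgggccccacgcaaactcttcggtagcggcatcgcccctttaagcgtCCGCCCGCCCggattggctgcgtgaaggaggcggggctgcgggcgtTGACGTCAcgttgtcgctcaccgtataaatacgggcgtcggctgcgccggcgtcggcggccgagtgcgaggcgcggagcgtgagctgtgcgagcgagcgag
Adam17: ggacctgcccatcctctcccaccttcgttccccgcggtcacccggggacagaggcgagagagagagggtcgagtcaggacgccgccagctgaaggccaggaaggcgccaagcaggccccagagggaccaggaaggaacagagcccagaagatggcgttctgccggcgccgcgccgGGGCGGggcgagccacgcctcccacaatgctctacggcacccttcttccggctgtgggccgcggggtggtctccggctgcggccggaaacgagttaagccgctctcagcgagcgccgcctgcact

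The Areg window held 3 matches to the CRE core, which lay 115, 61 and 58 bases upstream of the start site, and the last 2 overlap as both arms of a palindrome. The second Errfi1 window held 2, at 51 and 48 bases, which overlap in the same way. The Adam17 window held none, and neither did the first Errfi1 window or the windows of Tgfa and Egfr. Over all 32851 windows searched, 20.8% held at least 1 such match and 5.01% held at least 2. The windows of Btc and Erbb2 held 1 each. SP1 matches were found in the windows of Areg, Errfi1 (the second), Tgfa, Egfr and Adam17, against 35.7% of all windows. A TEAD match (GGAATG) was found in the first Errfi1 window and the Erbb2 window, against 14.7% of all windows. The AP-1 motif TGANTCA, present in 7.81% of all windows, and the CArG box, present in 1.63%, matched none of the 8 windows. A match is a description of letters and not of a bound site. The promoters of Hbegf, Ereg and Nrg1 were not searched, so nothing is said of their motifs.

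Of the 10 genes, 8 passed the filter on low counts and were tested in edgeR's quasi-likelihood model with Benjamini-Hochberg adjustment over 11314 protein-coding genes, and a gene was called at an adjusted p below 0.05. In A1-treated MSCs against control MSCs, 5 were higher (Hbegf, Ereg, Btc, Nrg1 and Errfi1), 2 were lower (Egfr and Adam17) and Erbb2 did not pass. Ereg passed the filter only through the treated libraries, where it is high, so its part in the counts and medians here is a description. Over all genes tested, 62.7% were called in this comparison (31.7% higher and 31.1% lower), so a call alone is common here. With a log2 fold change of at least 0.5 in size added, 4 were higher and 2 lower, where 21% of all genes passed (9.41% higher and 11.6% lower). The median log2 fold change of the 8 was 0.89, beside 0.00 over all genes tested. In A1-OVA against control MSCs, 6 were higher and 2 lower, with 57.6% of all genes called (29.7% higher and 27.9% lower). With the size limit, 4 were higher and 2 lower, where 17.7% of all genes passed (8.92% higher and 8.79% lower). The median of the 8 was 0.54, beside 0.00 over all genes. In both comparisons, Areg and 5 of the tested genes were higher and 2 lower in all treated than in all control libraries. Such a separation was found for 28% of all genes tested (higher) and 26.4% (lower) with A1, and for 25.4% and 24% with A1-OVA. Both comparisons use the same 4 control libraries. These are bulk samples, in which a change in RNA per cell and a change in the share of cells that hold the RNA cannot be told apart.

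**Figure D1:**
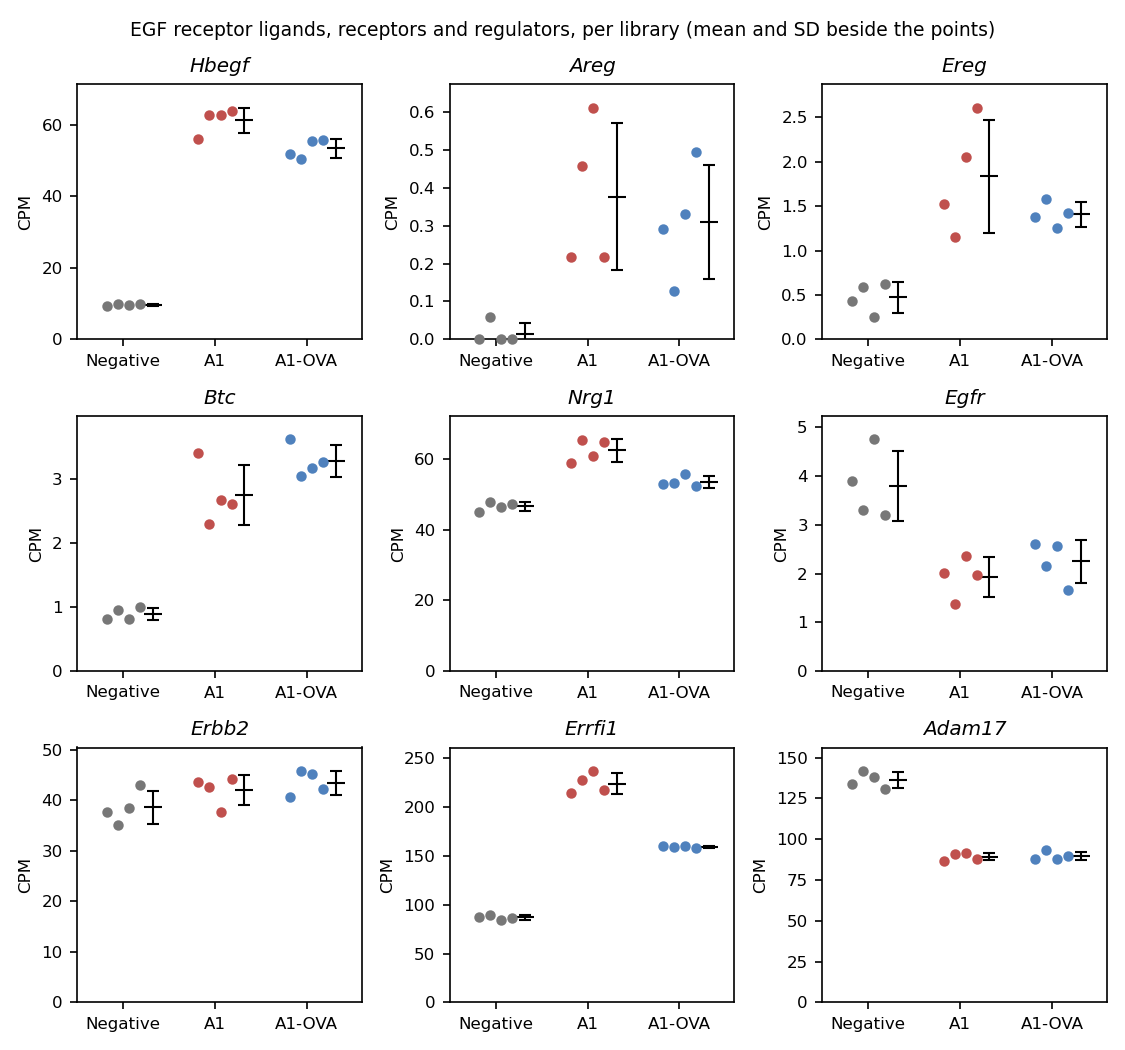
CPM (TMM-scaled, linear axis from 0) of 9 EGF receptor family genes in each of the 12 libraries, by group, with the mean and SD of 4 libraries beside the points. Hbegf, Ereg, Btc, Areg, Nrg1 and Errfi1 sit higher in every treated library than in every control library, Egfr and Adam17 sit lower, and Erbb2 overlaps; Tgfa had no read and is not drawn.

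Hbegf, which encodes heparin-binding EGF-like growth factor, changed most among the ligands that were tested. It was at 9.28, 9.99, 9.59 and 9.78 CPM in the 4 control libraries, at 56.1, 62.6, 62.7 and 63.7 CPM in the A1-treated libraries, and at 51.9, 50.4, 55.5 and 55.8 CPM in A1-OVA. Every treated library stood above every control library, and every A1-OVA library stood below every A1 library. The depth behind these values was 150 to 169 reads per control library and 716 to 906 per treated library. The rise was 6.34-fold with A1 (log2 fold change 2.66, SE 0.06, edgeR adjusted p = 7.94e-19) and 5.52-fold with A1-OVA (log2 fold change 2.46, SE 0.06, edgeR adjusted p = 4.87e-18). A1-OVA was lower than A1 by a small margin (log2 fold change -0.20, SE 0.05, edgeR adjusted p = 0.0127). With 1 library left out at a time, this difference ran from -0.243 to -0.171, and the edgeR adjusted p reached 0.0498, just under the limit. A1 replicate 1 stood apart from the other 3 A1 libraries. Without it, or without any other single library, the log2 fold change with A1 stayed between 2.64 and 2.70.

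Areg, which encodes amphiregulin, was nearly undetected in control MSCs, with 0, 1, 0 and 0 reads in the 4 libraries. A1-treated MSCs held 3, 6, 8 and 3 reads, and A1-OVA held 4, 2, 5 and 8. No treated library was as low as a control library, but the counts are so few that Areg did not pass the filter. The summed reads, scaled for depth, gave a ratio of 24.2 for A1 over control MSCs (95% counting interval 3.88 to 1000) and of 20.3 for A1-OVA (3.23 to 844), intervals that cover counting error only. An exact two-sided permutation test gave p = 0.0286 for each, the smallest p that the 70 arrangements of 4 against 4 libraries allow. A1-OVA and A1 did not differ detectably (ratio 0.838, counting interval 0.423 to 1.65, exact permutation p = 0.6). When genes under the filter were kept in the edgeR model, Areg had adjusted p = 9.69e-05 with A1 and 0.000372 with A1-OVA.

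Ereg, the gene of epiregulin, lies beside Areg on chromosome 5 and was also scarce. Control libraries held 7, 10, 4 and 10 reads, A1-treated libraries 21, 15, 27 and 36, and A1-OVA libraries 19, 25, 19 and 23. The treated groups stood above the control group without overlap and overlapped each other. Control reads were too few for the filter on low counts, which Ereg passed only through its treated libraries. The tests against control MSCs thus concern a gene that was kept by the groups where it is high. Ereg rose 3.82-fold with A1 (log2 fold change 1.93, SE 0.30, edgeR adjusted p = 9.01e-06) and 2.93-fold with A1-OVA (log2 fold change 1.55, SE 0.31, edgeR adjusted p = 0.000202). The difference between the treated groups was -0.38 on the log2 scale, with a 95% interval from -0.88 to 0.11 and adjusted p = 0.319.

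Btc, the gene of betacellulin, held 13, 16, 13 and 16 reads in control libraries, 47, 30, 35 and 36 in A1-treated libraries, and 50, 48, 48 and 53 in A1-OVA. It rose 3.07-fold with A1 (log2 fold change 1.62, SE 0.19, edgeR adjusted p = 2.26e-07) and 3.65-fold with A1-OVA (log2 fold change 1.87, SE 0.18, edgeR adjusted p = 1.2e-08). Of the 4 ligands tested, Btc was the one whose mean was higher in A1-OVA than in A1, by 0.25 on the log2 scale, but the 95% interval ran from -0.06 to 0.56 and the adjusted p was 0.3.

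Nrg1, which encodes neuregulin 1, was the most abundant ligand RNA per kilobase in control MSCs and rose least. Control libraries were at 45, 47.8, 46.5 and 47.2 CPM, A1-treated libraries at 58.8, 65.4, 60.8 and 64.8 CPM, and A1-OVA libraries at 52.8, 53.1, 55.9 and 52.3 CPM. The 3 groups did not overlap, with A1-OVA between the others. The rise was 1.34-fold with A1 (log2 fold change 0.42, SE 0.05, edgeR adjusted p = 8.86e-08) and 1.15-fold with A1-OVA (log2 fold change 0.20, SE 0.05, edgeR adjusted p = 0.00103). Both lie under the size limit of 0.5. A1-OVA was lower than A1 (log2 fold change -0.22, SE 0.05, edgeR adjusted p = 0.00298). Counts per gene do not separate the isoforms of Nrg1.

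Tgfa, the gene of transforming growth factor alpha, had 0 reads in all 12 libraries. A count of 0 in 1 library alone allows up to 3 expected reads, and a count of 0 in all 12 libraries sets a tighter limit. Tgfa RNA was thus not detectable, and no comparison can be made. Of the 5 other ErbB ligand genes examined, Nrg2 and Nrg3 had 0 reads throughout, Epgn had 0 to 5 and Nrg4 had 1 to 6 reads per library. Egf itself had 5 to 15 reads, with a log2 fold change of -0.08 with A1 (SE 0.31, edgeR adjusted p = 0.825).

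Divided by exon length, the ligand RNAs can be set beside each other, within a limit. The length is that of all annotated exons of a gene, 4834 bases for Hbegf and 10351 for Nrg1, and the isoforms in use are not known. In CPM alone, Hbegf and Nrg1 were near each other with A1 (61.3 ± 3.48 and 62.4 ± 3.15) and with A1-OVA (53.4 ± 2.67 and 53.5 ± 1.63). Their order in the treated groups therefore rests on these lengths. In control MSCs, Nrg1 made up 66.0% ± 0.80 (SD, n = 4) of the summed CPM per kilobase of the 6 ligand genes and Hbegf 29.3% ± 0.19. In A1-treated MSCs, Hbegf made up 63.1% ± 0.47 and Nrg1 30.1% ± 0.95. A1-OVA had nearly the same make-up, with 63.0% ± 0.74 for Hbegf and 29.5% ± 1.14 for Nrg1. The sum itself was 6.83 ± 0.238 CPM per kilobase in control MSCs, 20.1 ± 1.01 with A1 and 17.5 ± 0.694 with A1-OVA. Btc, Ereg and Areg each stayed under 5% of the sum in every library. These shares restate the levels above and were not tested.

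**Figure D2:**
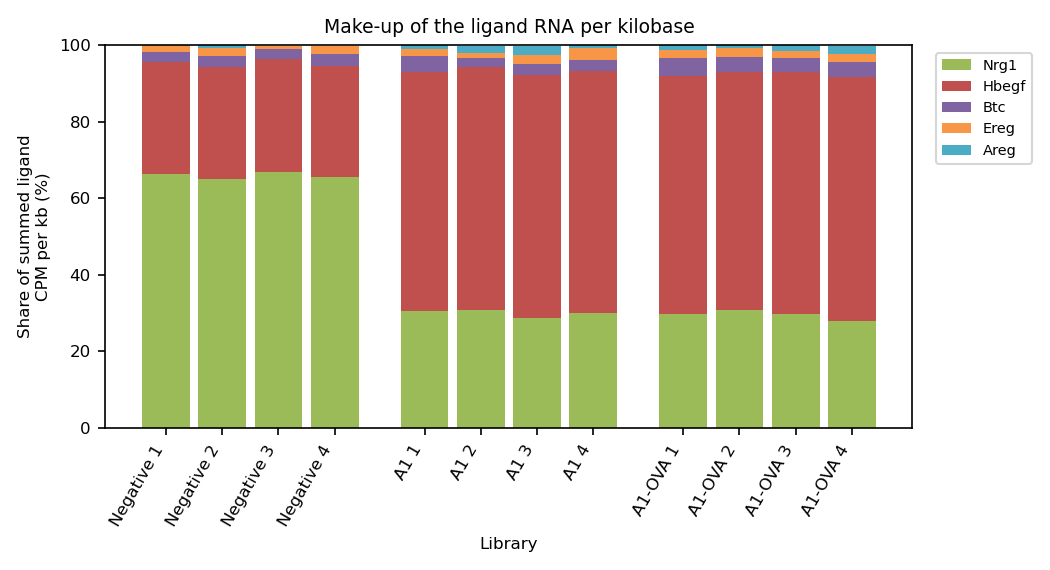
Share (percent) of each ligand gene in the summed ligand CPM per kilobase, 1 bar per library. Nrg1 holds 65.2% to 66.9% in the 4 control libraries, and Hbegf holds 62.4% to 63.9% in the 8 treated libraries.

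Egfr, the receptor for HB-EGF, amphiregulin, epiregulin and betacellulin, was scarce in these cells and fell. Control libraries held 63, 56, 77 and 51 reads, A1-treated libraries 28, 18, 31 and 27, and A1-OVA libraries 36, 34, 39 and 27. The lowest control library, at 3.2 CPM, was above the highest treated library, at 2.61 CPM. Egfr RNA in A1-treated MSCs was 51.1% of the control level (log2 fold change -0.97, SE 0.19, edgeR adjusted p = 0.000134) and in A1-OVA 59% (log2 fold change -0.76, SE 0.18, edgeR adjusted p = 0.000893). The treated groups overlapped, with a difference of 0.21 on the log2 scale (95% interval -0.23 to 0.65, adjusted p = 0.564).

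Erbb2 was the more abundant receptor RNA. Control libraries were at 37.7, 35.2, 38.4 and 43.1 CPM, A1-treated libraries at 43.6, 42.7, 37.6 and 44.3 CPM, and A1-OVA libraries at 40.6, 45.7, 45.2 and 42.2 CPM. The 3 groups overlapped. With A1 the log2 fold change was 0.12 (95% interval -0.01 to 0.26, edgeR adjusted p = 0.101). With A1-OVA it was 0.17 (95% interval 0.04 to 0.30, edgeR adjusted p = 0.0271). This call rests on single libraries. Without Negative replicate 1, 2 or 3 the adjusted p was 0.0537, 0.102 and 0.0529, and without A1-OVA replicate 2 or 3 it was 0.0815 and 0.0681. Conversely, without Negative replicate 4 or A1 replicate 3 the A1 comparison passed (adjusted p = 0.0199 and 0.032). In the order of levels per kilobase, Erbb2 at 7.41 ± 0.639 CPM per kilobase stood far above Egfr at 0.335 ± 0.0633 in control MSCs (SD, n = 4). Erbb3 had 0 to 5 reads and Erbb4 0 or 1 read per library, so that neither of the usual NRG1 receptors was measurable.

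Errfi1, the feedback inhibitor of the receptor kinases, rose in both treated groups and had the largest difference between the treated groups among the 3 members called there. It was at 87.1, 89.7, 83.8 and 86.8 CPM in control libraries, at 214, 227, 237 and 217 CPM in A1-treated libraries, and at 160, 159, 160 and 158 CPM in A1-OVA. No group overlapped another, and A1-OVA stood between the others in all 4 libraries. The rise was 2.58-fold with A1 (log2 fold change 1.37, SE 0.04, edgeR adjusted p = 2.06e-17) and 1.83-fold with A1-OVA (log2 fold change 0.88, SE 0.04, edgeR adjusted p = 3.66e-14). A1-OVA was at 71.2% of the A1 level (log2 fold change -0.49, SE 0.04, edgeR adjusted p = 3.22e-08).

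Adam17, the main sheddase of this ligand family, fell in both treated groups. Control libraries were at 134, 142, 138 and 131 CPM, A1-treated libraries at 86.7, 91, 91.3 and 88.1 CPM, and A1-OVA libraries at 87.6, 93.3, 88.1 and 89.5 CPM. Every treated library was below every control library. Adam17 RNA was 65.5% of the control level with A1 (log2 fold change -0.61, SE 0.04, edgeR adjusted p = 1.01e-11) and 65.8% with A1-OVA (log2 fold change -0.60, SE 0.04, edgeR adjusted p = 1.2e-11). The treated groups differed by 0.01 on the log2 scale (95% interval -0.08 to 0.09, adjusted p = 0.938). The span of Adam17 overlaps Iah1, and that of Erbb2 overlaps Mien1, each on the other strand. Iah1 had 219 to 268 reads per control library, 141 to 174 with A1 and 188 to 211 with A1-OVA. Mien1 had 345 to 424, 262 to 293 and 333 to 393 reads in the same order. These reads are not scaled for depth, and their differences were not tested. Reads were counted by strand, per the study's methods, so that the 2 genes of such a pair are counted apart. The antisense genes over Egfr, Ereg and Errfi1 had at most 5 reads in any library.

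**Figure D3:**
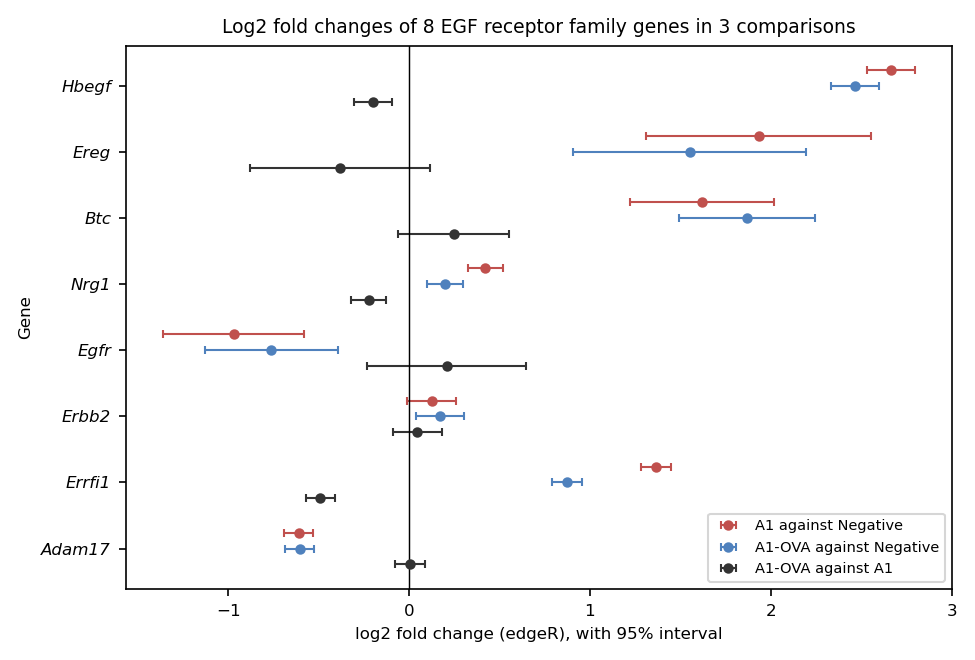
Log2 fold change (edgeR, horizontal axis) of the 8 genes tested, with 95% intervals, in A1 against control MSCs, A1-OVA against control MSCs and A1-OVA against A1. The intervals of Hbegf, Ereg, Btc, Nrg1 and Errfi1 lie above 0 and those of Egfr and Adam17 below 0 in both comparisons with control MSCs.

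Set in order by CPM per kilobase, control MSCs ran from Errfi1 (24.3 ± 0.671) through Adam17 (19 ± 0.667), Erbb2, Nrg1 (4.50 ± 0.115), Hbegf (2.00 ± 0.0621), Egfr, Btc (0.197 ± 0.0223) and Ereg (0.115 ± 0.042) to Areg (0.0122 ± 0.0243). In A1-treated MSCs Hbegf (12.7 ± 0.72) stood level with Adam17 (12.5 ± 0.314), since their libraries overlapped, and Errfi1 was at 62.5 ± 2.97. Btc (0.607 ± 0.104) and Ereg (0.444 ± 0.155) also overlapped, as did Ereg and Areg (0.309 ± 0.159). Egfr was at 0.171 ± 0.0364 with A1 and 0.199 ± 0.0391 with A1-OVA, and its libraries overlapped those of Areg in both treated groups. In A1-OVA, Hbegf (11 ± 0.553) was below Adam17 (12.5 ± 0.36) in every library.

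Between A1-OVA and A1, 3 of the 8 tested genes were lower with OVA (Hbegf, Nrg1 and Errfi1), none was higher and 5 did not pass. Over all genes tested, 12.9% were called in this comparison (6.05% higher and 6.81% lower). The median log2 fold change of the 8 was -0.10, beside 0.01 over all genes. None of the 3 reached a log2 fold change of 0.5 in size, which 1.2% of all genes did (0.769% higher and 0.433% lower). At an unadjusted p under 0.05, edgeR gave 3 genes, and DESeq2 called 3 after adjustment, all of them lower. In these 3 every A1-OVA library was below every A1 library, a separation found for 9.58% of all genes in this direction and 8.56% in the other.

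The rest of the pathway was followed with 47 genes in 6 roles, of which 41 were tested. These lists were chosen with earlier results of these data known, so the counts are descriptions. In A1-treated MSCs 22 were higher, 8 lower and 11 did not pass, with a median log2 fold change of 0.38 beside 0.00 over all genes tested, of which 31.7% were higher and 31.1% lower. In A1-OVA, 23 were higher, 8 lower and 10 did not pass, with a median of 0.34, beside 29.7% of all genes higher and 27.9% lower. The genes with a log2 fold change of at least 0.5 in size with A1 were 20 higher and 2 lower of the 41, beside 9.41% higher and 11.6% lower over all genes tested.

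Among the 9 genes that act in ligand shedding, 4 were higher with A1, 3 were lower and 2 (Rhbdf1 and Nrdc) did not pass, where 62.7% of all genes were called, so the count is near that share. In A1-OVA 5 were higher, 3 were lower and 1 did not pass, where 57.6% of all genes were called. The list joins sheddases with an inhibitor and other regulators, so its counts give no common direction. Adam12, a metalloproteinase linked to HB-EGF release, was at 47.6 to 50.1 CPM in control MSCs and 120 to 127 CPM with A1 (log2 fold change 1.34, SE 0.05, edgeR adjusted p = 5.88e-16). Adam19, another metalloproteinase of the family, rose by 1.14 (SE 0.05) on the log2 scale. Timp3, a secreted inhibitor of ADAM17, rose from 2.54 to 4.27 CPM in control MSCs to 11.3 to 13.7 CPM with A1 (log2 fold change 1.92, SE 0.12, edgeR adjusted p = 1.13e-11). It stood at 13.5 to 15.8 CPM with A1-OVA.

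Rhbdf2, which encodes iRhom2, a protein that carries ADAM17 to the cell surface, was at 12.8 to 18.2 CPM in control MSCs, 9.47 to 10 CPM with A1 and 12.2 to 14.1 CPM with A1-OVA. It fell with A1 (log2 fold change -0.70, SE 0.10, edgeR adjusted p = 3.27e-06), and A1-OVA was higher than A1 (0.43, SE 0.10, edgeR adjusted p = 0.00883). Its fall with A1-OVA (-0.27, adjusted p = 0.0168) did not pass without Negative replicate 1 (adjusted p = 0.0507), Negative replicate 4 (0.0825) or A1-OVA replicate 2 (0.0572). Adam10 (log2 fold change -0.34) and Adam9 (-0.41), other sheddases of the family, were lower with A1. Frmd8, also on the shedding list, was higher with A1 (log2 fold change 0.38, SE 0.06, edgeR adjusted p = 3.06e-05).

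Of 8 genes listed under receptor attenuation, 3 were higher with A1, 1 was lower (Usp8, log2 fold change -0.19) and 4 did not pass, where 62.7% of all genes were called. The list joins genes that act on receptor turnover and does not give the direction in which each acts. Lrig1, a membrane protein that promotes the breakdown of ErbB receptors, had a log2 fold change of 0.56 (SE 0.04, edgeR adjusted p = 6.73e-11). Cblb, a ubiquitin ligase that marks active receptors, had 0.62 (SE 0.05), and Socs5, a suppressor of cytokine signaling linked to EGF receptor turnover, had 0.55 (SE 0.04). In A1-OVA the log2 fold changes of these 3 were 0.55, 0.57 and 0.36. Of 9 adaptor genes, 2 were higher with A1, 3 lower and 4 not passed, against the same 62.7%. Eps8, a substrate of the receptor kinase, was the one past 0.5, with a log2 fold change of 1.09 (SE 0.10, edgeR adjusted p = 2.74e-09).

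Of 14 transcripts known to be induced through ERK, 13 were higher with A1 and Fos was lower, beside 31.7% of all genes higher and 31.1% lower. Since the list was chosen with earlier results of these data known, this count is a description. The 13 are part of the 22 pathway genes that were higher with A1. The median log2 fold change of all 14, Fos included, was 1.24. Dusp5, a phosphatase of nuclear ERK, was at 13.2 to 14.6 CPM in control MSCs, 57.9 to 66.7 CPM with A1 and 43.7 to 46.7 CPM with A1-OVA (log2 fold change with A1 2.17, SE 0.06, edgeR adjusted p = 6.77e-18). Dusp6, a phosphatase of cytoplasmic ERK, rose by 1.92, the AP-1 subunit gene Fosl1 by 1.87, and the ETS factor gene Etv4 by 1.78 on the log2 scale. The others were Ier3 (1.55), Egr1 (1.49), Phlda1 (1.34), Spry2 (1.13), Junb (1.08), Myc (1.03), Etv5 (0.97), Dusp4 (0.94) and Spry4 (0.59). Spry4 did not pass without A1 replicate 1 (adjusted p = 0.0573).

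Fos, the classical early gene of the ERK response, held 95, 54, 46 and 31 reads in control libraries, 16, 17, 6 and 19 with A1, and 21, 19, 56 and 31 with A1-OVA. The A1 libraries were all below the control libraries, and the A1-OVA libraries overlapped them. The log2 fold change was -1.68 with A1 (SE 0.37, edgeR adjusted p = 0.000569) and -0.73 with A1-OVA (SE 0.31, edgeR adjusted p = 0.0512). The second value passed without Negative replicate 3 (adjusted p = 0.0453), Negative replicate 4 (0.0144), A1 replicate 3 (0.0437) or A1-OVA replicate 3 (0.00373). Without Negative replicate 1, the highest control library, it was -0.36 with an adjusted p of 0.309, and over all 12 leave-outs it ran from -1.16 to -0.36.

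Between A1-OVA and A1, 8 of the 41 pathway genes were lower with OVA, 1 was higher (Rhbdf2) and 32 did not pass, beside 6.05% of all genes higher and 6.81% lower. Of the 8, 6 are ERK-induced transcripts. Egr1 was at 68.5 to 85.1 CPM with A1 and 37.8 to 49.2 CPM with A1-OVA (log2 fold change -0.78, SE 0.07, edgeR adjusted p = 5.54e-07). Dusp6 had -0.58, Dusp5 -0.46, Spry2 -0.40, Junb -0.34 and Fosl1 -0.24. The other two were Socs5 (-0.19) and Grb2 (-0.16), the adaptor that couples the receptors to RAS.

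**Figure D4:**
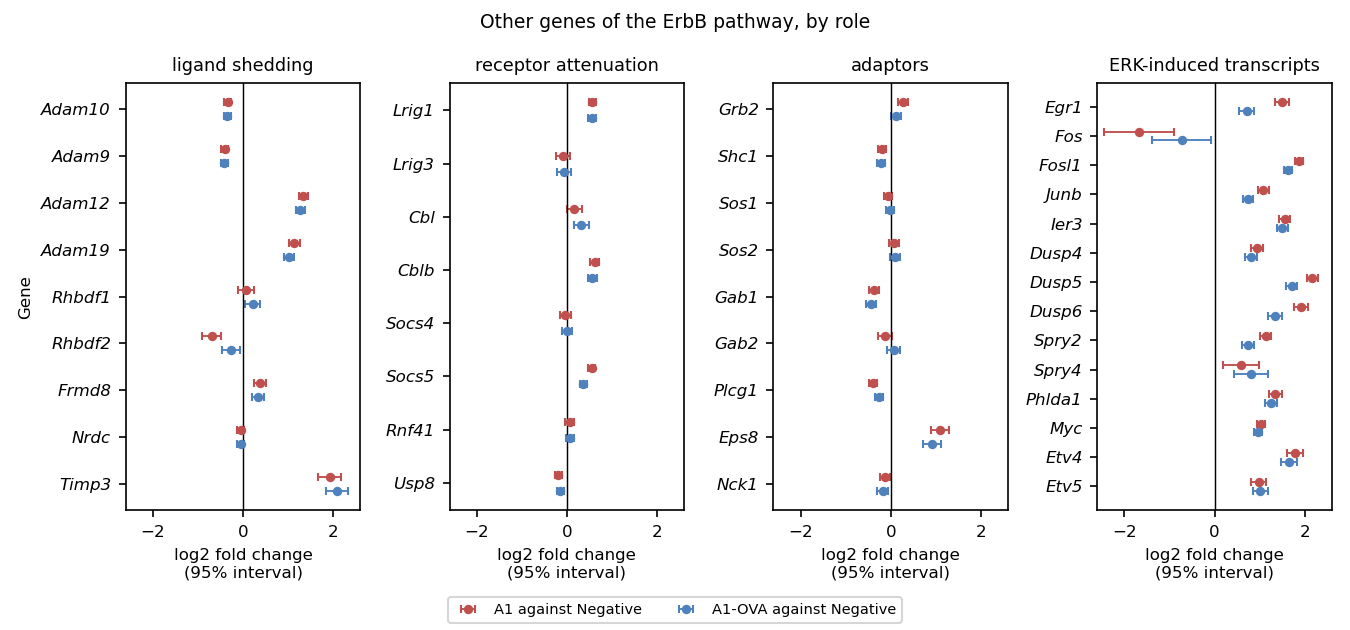
Log2 fold change (edgeR) with 95% intervals of 40 other pathway genes in 4 roles, for A1 and for A1-OVA against control MSCs. Of the 14 ERK-induced transcripts, 13 lie above 0 in both comparisons and Fos lies below 0, while the other 3 roles hold genes on both sides of 0.

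Across the 12 libraries, the 2 genes whose log2 CPM ran most like that of each member called with A1 were listed as a description, leaving out Ereg, whose mean log2 CPM is under 1. Hbegf ran with Plaur (r = 0.998) and Hmga2 (0.998), Btc with Slc7a11 (0.993) and 2810004N23Rik (0.983), and Nrg1 with A630089N07Rik (0.979) and Mybl2 (0.973). Egfr ran with Tmem218 (0.963) and Elmod3 (0.947), Errfi1 with Dusp6 (0.996) and Kcnk2 (0.996), and Adam17 with Adamts5 (0.996) and Oxr1 (0.995). The 12 libraries fall into 3 groups, and such values mainly follow the group means. At r over 0.9 there were 1467 genes for Hbegf, 1122 for Btc, 278 for Nrg1, 20 for Egfr, 1149 for Errfi1 and 1058 for Adam17.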

How the data were processed

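Poly(A) RNA of 12 samples was sequenced from stranded libraries. Per the labels, the authors used bcl2fastq 2.20, STAR 2.7 on GRCm38 and featureCounts 2.0, and deposited raw counts per Ensembl gene. Per the study's methods, counting used the strand. Symbols, gene types and exon lengths came from GENCODE M21, in which 99.53% of the 55487 identifiers had an entry. Of these, 21974 were protein-coding.

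The counts were tested with edgeR 4.0.16 in R 4.3.3 (TMM factors, filterByExpr, quasi-likelihood F test, 1 group term over all 12 libraries), with Benjamini-Hochberg adjustment over 11314 protein-coding genes. Scripts were tested on simulated data. The filter removed Areg and Tgfa, and their counts are given instead. Alternatives were DESeq2 1.42.0, other factors, filters and gene sets, only the groups compared, a replicate block, a log2 limit of 1 and leaving out each library. The members and lists were chosen with earlier results of these data known. All 10 members are named, along with pathway genes past a log2 fold change of 0.5 in size with A1, those not detectable, and, for likeness, the 2 genes with the highest r per called member with a mean log2 CPM of at least 1. Other pathway genes, which the text names to complete a count or a role, were chosen after their values were seen. Nrdc was matched through its older symbol Nrd1. Pairs of libraries within a group differed by more than sampling noise. Protein sequences were not used here.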

Additional observations from a re-analysis of the deposited data

Results flagged for a closer look

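In 6 of 93 sets of 4 libraries, 1 library lay far from the other 3, with a gap to its nearest neighbor that was a larger share of the whole range than Dixon's 95% limit, which chance gives in about 1 of 20 sets. Hbegf in A1 replicate 1 had a gap of 0.857 of the range, at 56.1 CPM beside 62.6 to 63.7 CPM. Ier3 was also low in A1 replicate 1 (gap 0.903, 47.8 CPM beside 56.3 to 57.2). Areg in Negative replicate 2 had a gap of 1, from a single read where the other 3 libraries had none. Dusp6 was high in Negative replicate 2 (gap 0.868, 10.6 CPM beside 9.22 to 9.41). Adam19 was low in Negative replicate 1 (gap 0.843, 22 CPM beside 24.8 to 25.3). Myc was high in A1-OVA replicate 3 (gap 0.993, 137 CPM beside 127).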

How the results depend on the processing

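With a log2 fold change of at least 1 in size added, the called EGF receptor family genes went from 7 to 4 with A1, from 8 to 3 with A1-OVA and from 3 to 0 between A1-OVA and A1, and the called pathway genes from 30 to 15, from 31 to 10 and from 9 to 0, since a stricter limit can only lower them. Under the other alternatives these counts stayed within 1.5 times. Leaving out 1 library at a time gave 7 to 8, 7 to 8 and 3 family genes and 29 to 32, 29 to 32 and 8 to 10 pathway genes. Between A1-OVA and A1, 8 uncalled values changed sign when 1 library was left out. They were Adam17 (-0.011 without A1 replicate 1, -0.003 without A1 replicate 4, -0.013 without A1-OVA replicate 2, range -0.013 to 0.017), Erbb2 (-0.007 without A1 replicate 3, range -0.007 to 0.076), Lrig1 (0.005 without A1 replicate 4 and 0.008 without A1-OVA replicate 4, range -0.034 to 0.008) and Etv5 (-0.001 without A1 replicate 4 and -0.011 without A1-OVA replicate 1, range -0.011 to 0.074), and the cause was not tested. With upper-quartile factors the call of Erbb2 with A1-OVA was lost (log2 fold change 0.15, adjusted p = 0.0513). Fos with A1-OVA passed with RLE factors (adjusted p = 0.0454), upper-quartile factors (0.0468) and no filter (0.00422), and between A1-OVA and A1 with no filter (0.0284).

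Replicate numbers are shared between groups, but deviations of same-numbered libraries correlated at a mean r of 0.021 (-0.132 to 0.156, 2 of 12 over 0.1), and 5 of 12 libraries correlated best with their own number, so the numbers were not taken as pairs. With a replicate block, 7, 8 and 3 family genes and 30, 32 and 10 pathway genes were called. Depth limits Areg, Tgfa, Ereg, Btc and Egfr, whose reads are few.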

Other observations

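Ereg, Areg and Btc lie near each other on chromosome 5, between Mthfd2l and Parm1 (GRCm38), and these flanking genes were looked at after the values were seen. In order of position, Mthfd2l (chr5:90931117-91021368) had a log2 fold change of -0.06 with A1 (edgeR adjusted p = 0.391), and Epgn (chr5:91027464-91035215) had 0 to 5 reads per library. Ereg (chr5:91074622-91093646) rose, Areg (chr5:91139599-91148432) went from 0 or 1 read to 3 to 8 reads with A1, and Btc (chr5:91357261-91402994, minus strand) rose. Parm1 (chr5:91517615-91626894), the next gene in this list, held 262 to 320 reads in control MSCs and 132 to 166 with A1, and fell by 0.70 on the log2 scale (adjusted p = 3.35e-07). The ligand genes called in this stretch thus rose, while the flanking genes did not.

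Krt8, an intermediate filament gene of the epithelial marker list, held 0, 2, 1 and 0 reads in control libraries, 10, 6, 6 and 3 with A1, and 6, 9, 9 and 4 with A1-OVA, while Epcam had none in any library.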
